A study of Homo sapiens with 12 samples.

Results

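ATP-binding cassette (ABC) transporter genes were examined in A375 cells, a human melanoma line that carries mutant BRAF, after exposure to a BRAF inhibitor, a retinoid or both. The members were all protein-coding genes whose symbol is ABC followed by a letter from A to G and a number, which gave 45 of the 58347 genes in the count files. They comprised 12 genes of subfamily A, 9 of B, 11 of C, 4 of D, 1 of E, 3 of F and 5 of G. A further 16 genes with an ABC symbol are pseudogenes or other non-coding genes and were left out. TAP1, TAP2 and CFTR encode ABC proteins under other symbols and were not members.

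RNA sequencing counts were available for 4 groups of 3 libraries. The groups were cells given the DMSO vehicle, cells given Tretinoin, cells given Vemurafenib, and cells given the Combination of both drugs, each for 8 hours. The labels list 5 µM for every group, the vehicle and the combination included, and do not say how the dose was split between the drugs in the combination. Vemurafenib inhibits mutant BRAF kinase, and tretinoin (all-trans retinoic acid) activates retinoic acid receptors. All samples came from this 1 cell line, and beyond triplicate treatment nothing says whether replicates were separate cultures, so p-values measure the spread between these libraries only. The study asked how the pair of drugs acts on BRAF-mutant melanoma cells, and the comparisons below ask which ABC genes moved with each drug.

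ABC proteins bind and hydrolyse ATP through a conserved cassette. Most couple this to moving lipids, sterols, peptides, metals, bile salts or drugs across a membrane, and ABCB1, ABCG2 and several ABCC proteins are known for exporting drugs from tumour cells, vemurafenib among the cargo of ABCB1 and ABCG2. ABCE1 and the ABCF proteins have no membrane part and act on ribosomes. ABCA1 and ABCG1 export cholesterol and are known targets of the liver X receptors (LXR), which pair with retinoid X receptors.

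The libraries held 13510235 to 21534377 counts. Levels are given as CPM, counts scaled to a common library total, after TMM normalization, an edgeR scaling that equalizes the bulk of genes between libraries, and differences as log2 fold changes with their standard error (SE). A gene was called where edgeR's quasi-likelihood test gave an adjusted p under 0.05, with the Benjamini-Hochberg correction over all 16740 genes with enough counts to be tested. TMM factors averaged 0.928 in DMSO, 0.977 with tretinoin, 1.06 with vemurafenib and 1.04 with the combination. With total counts alone as the scale, the median log2 fold change of all genes moved from 0.019 to 0.214 for vemurafenib and from 0.025 to 0.187 for the combination, each against DMSO. The line was checked against its markers. VIM, AXL, S100A6 and CD44 were abundant and MITF had 245 to 658 counts per library, but SOX10 was listed at 0 in all 12 libraries, TYR had at most 1 count and MLANA at most 19. POLR2F exons overlie 89 of the 3710 exon bases of SOX10. The summed level of the 8 melanocyte markers was 26.3 to 31.1 CPM in DMSO, 24.3 to 28.9 with tretinoin, 44.3 to 46 with vemurafenib and 39.8 to 41.3 with the combination. MITF was the largest part, with a mean of 17.6 CPM in DMSO and 32.4 with vemurafenib. TYRP1 was also called higher with vemurafenib (0.408 and 2.06 CPM), while S100B (9.08 and 9.22) and PMEL (1.16 and 0.79) were not called. Of 6 markers of blood, epithelial and endothelial cells, 5 were tested, and CD3E had 0 to 9 counts. The keratin KRT14 was the most abundant of them, with 64 to 580 counts, a mean of 11 CPM in DMSO and 26.1 with vemurafenib. The other keratin, KRT5, was not called, at a log2 fold change of 0.32 with vemurafenib and -0.44 with the combination. PECAM1 was not called either, at -0.83 and -0.65, while VWF was called higher, by 2.13 and 2.04. PTPRC, which encodes the leukocyte antigen CD45, had 13 to 83 counts and was called higher under each treatment, by 1.46 (adjusted p = 0.0121, edgeR) with tretinoin, 1.36 with vemurafenib and 1.77 with the combination on the log2 scale. The summed level of the 6 was 14.1 to 20.8 CPM in DMSO, 15.5 to 18.7 with tretinoin, 34.7 to 37.9 with vemurafenib and 32.1 to 42.9 with the combination. KRT14 was the largest part of that sum. VIM, AXL, S100A6 and CD44 summed to 3062 to 3385 CPM in DMSO, 2816 to 2859 with tretinoin, 2511 to 2643 with vemurafenib and 2372 to 2601 with the combination, and all but VIM were called lower with vemurafenib. These sums moved with vemurafenib, and their part in the results below was not tested.

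Of the 45 members, 32 passed the filter on low counts and 13 did not. The 13 were ABCA4, ABCA6, ABCA8, ABCA9, ABCB5, ABCB11, ABCC8, ABCC9, ABCC11, ABCC12, ABCD2, ABCG5 and ABCG8, and none had more than 16 counts in a library. ABCB5, a transporter described in melanoma-initiating cells, had 0 to 4 counts in every library. ABCD2, a peroxisomal fatty acid importer, had 0 counts in all DMSO libraries, 1, 4 and 3 with tretinoin, 3, 3 and 10 with vemurafenib and 5, 5 and 6 with the combination. Against a floor of 3 counts over the DMSO group it was 2.68-fold higher with tretinoin, 4.63-fold with vemurafenib and 4.25-fold with the combination. No DMSO library overlapped a treated one, though the lowest treated library had 1 count. The floor allows for counting error in the DMSO zeros only, and the error of the treated counts was not included.

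Per kilobase of exon, the 32 tested members ranged from 0.048 CPM (ABCA12) to 40.8 CPM (ABCF1) over all libraries, with a median of 2.3. The cytosolic ABCF1, ABCF2 and ABCE1 stood highest at 40.8, 38.9 and 22.4 CPM per kilobase. ABCB10, a mitochondrial exporter linked to heme synthesis, followed at 18.6, and ABCF3 and the drug and conjugate exporter ABCC1 at 10.8 and 10.7. Over the 12 libraries ABCF3 and ABCC1 overlapped, as did ABCF1 and ABCF2. At the other end, 12 of the 32 lay under 1 CPM per kilobase, among them ABCB1 at 0.515, ABCG2 at 0.992, ABCA1 at 0.471 and ABCG1 at 0.338. The plot of levels by library shows the treatment shifts as small beside the spread between genes.

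**Figure D1:**
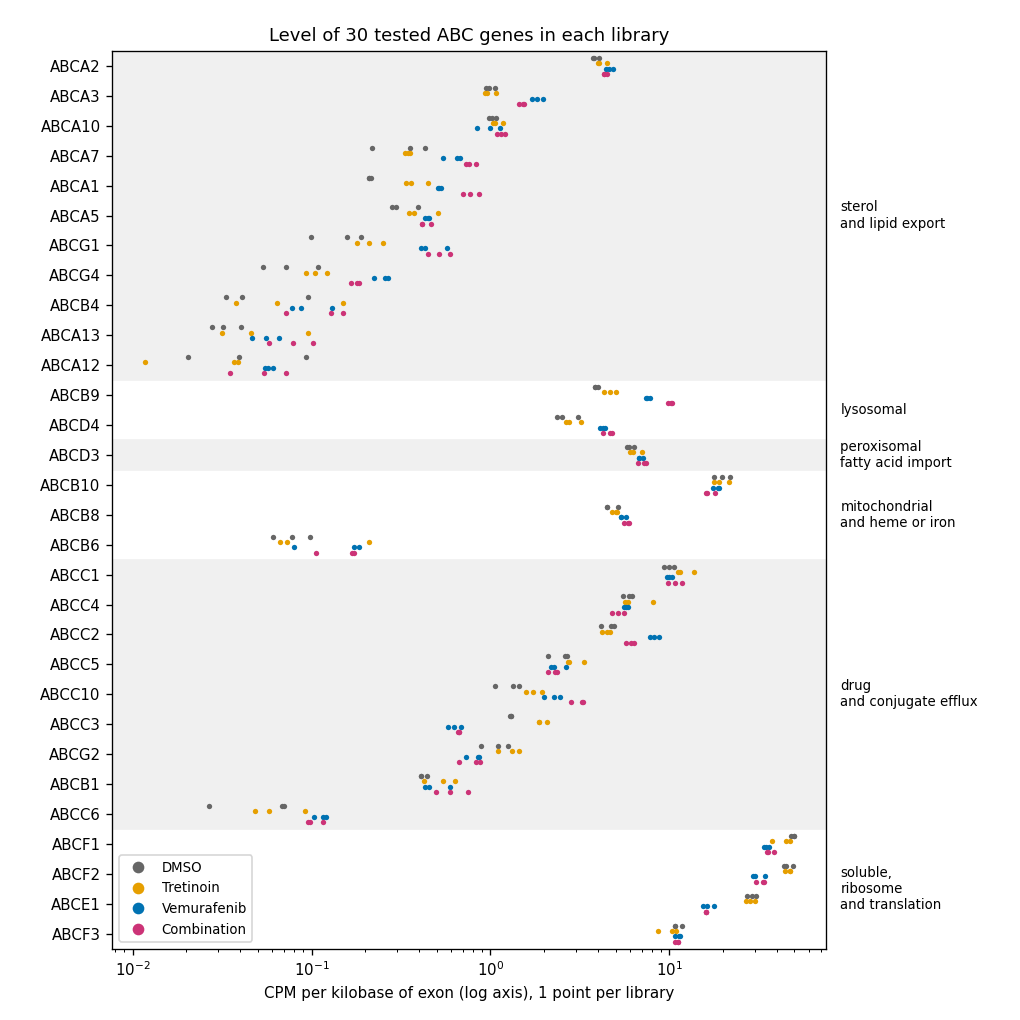
Level of each of 30 of the 32 tested ABC genes in CPM per kilobase of exon on a log axis, with 1 point per library, coloured by group and ordered by role. ABCF1, ABCF2 and ABCE1 lie at the top of the range, and ABCA12, ABCA13, ABCC6 and ABCB4 under 0.1 CPM per kilobase on average.

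Vemurafenib moved 20 of the 32 tested members, mainly upward. Against DMSO, 16 of the 32 tested members rose and 4 fell, while 26.4% of all tested genes rose and 26.3% fell. The combination against DMSO gave 17 higher and 6 lower members, with 27.1% of all genes higher and 26.5% lower. Tretinoin alone raised 3 members and lowered none, beside 3.48% and 2.2% of all genes. The median log2 fold change of the tested members was 0.25 for vemurafenib, 0.30 for the combination and 0.14 for tretinoin, and over all genes 0.02, 0.03 and 0.01. A member that passes the filter through the treated libraries alone is bound to rise, so the counts are also given for the 25 members with at least 10 counts in every library. Of these, vemurafenib raised 13 and lowered 4, and the combination raised 14 and lowered 4. Of the 13746 genes that pass this filter, vemurafenib raised 3895 and lowered 3811, and the combination raised 3956 and lowered 3825. With no filter on low counts, vemurafenib raised 10 of 45 members and lowered 5, beside 4182 higher and 4359 lower of 41806 genes. The 3 comparisons share the DMSO libraries. In RNA from a whole culture, a change in the mix of cells and a change within each cell cannot be told apart.

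With total counts as the scale, vemurafenib raised 17 members and lowered 4, and the combination raised 21 and lowered 4. The split over all genes went from 4411 higher and 4400 lower to 6575 higher and 2628 lower for vemurafenib, and from 4537 and 4440 to 6242 and 2916 for the combination. For tretinoin it went from 583 higher and 368 lower to 758 and 174, with 5 members raised and none lowered. The calls of lower ABCG2 and ABCB10 in the combination were lost on that scale, and no called member changed direction.

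**Figure D2:**
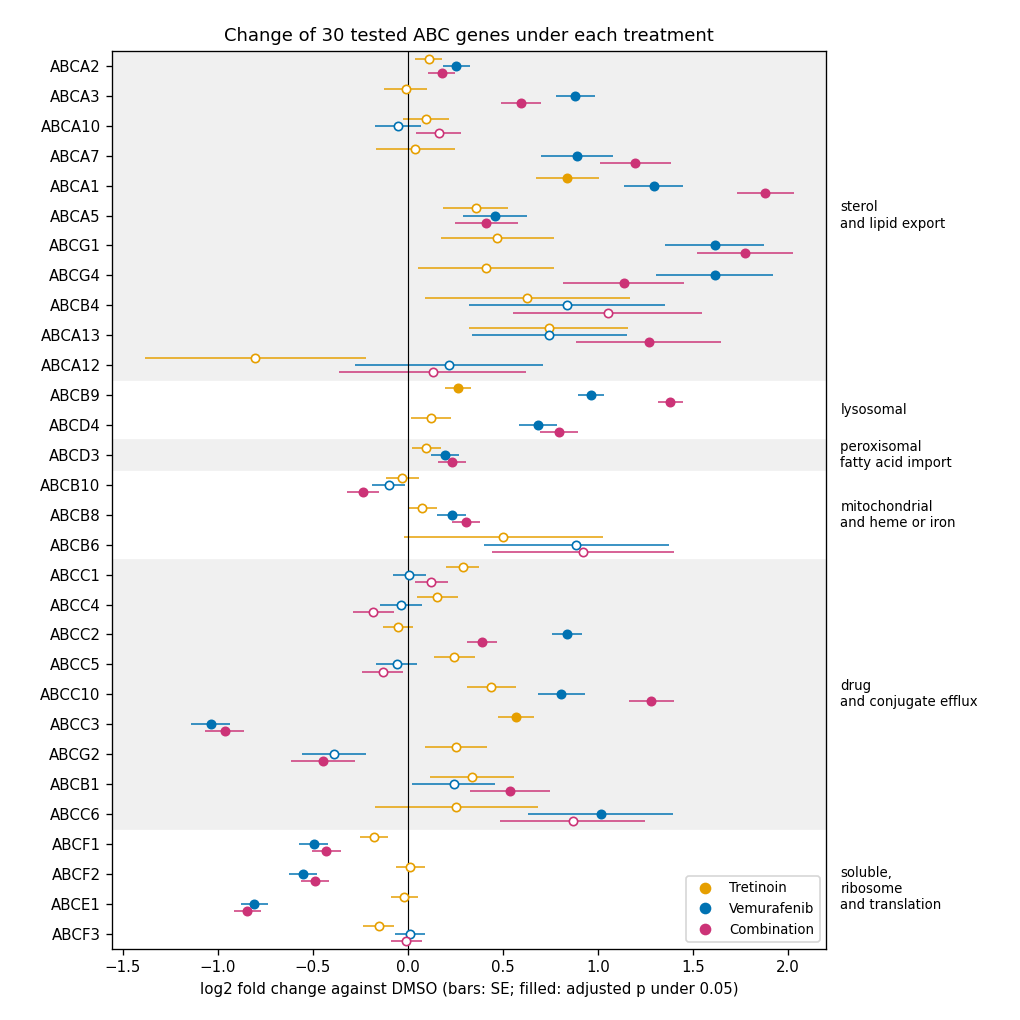
Log2 fold change against DMSO of 30 of the 32 tested ABC genes under tretinoin, vemurafenib and the combination, ordered by role, with bars for the SE and filled points for an adjusted p under 0.05 (edgeR). The 11 members listed under sterol and lipid export lie to the right of zero with vemurafenib, apart from ABCA10, and ABCF1, ABCF2 and ABCE1 to the left.

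Most tested members listed under sterol and lipid export were called higher with vemurafenib. The list is broad: it holds ABCA13, whose cargo is uncertain, and ABCA2 and ABCA3, which act at organelles inside the cell. Of 16 members with this role, 11 were tested. With vemurafenib 7 rose, none fell and ABCA10, ABCA12, ABCA13 and ABCB4 were not called. With the combination 8 rose and none fell, and with tretinoin 1 rose. Over all genes, 26.4% rose and 26.3% fell with vemurafenib, 27.1% and 26.5% with the combination, and 3.48% and 2.2% with tretinoin. ABCA1, which loads cholesterol and phospholipid onto apolipoprotein, responded to either drug and most to the pair. Its level was 2.38, 2.36 and 2.43 CPM in the DMSO libraries, 5.06, 4.07 and 3.83 with tretinoin, 6.03, 5.82 and 5.77 with vemurafenib, and 7.98, 8.69 and 9.78 with the combination. No 2 groups overlapped, and the order DMSO, tretinoin, vemurafenib, combination held for every library. Relative to DMSO, the log2 fold change was 0.84 (SE 0.17, adjusted p = 0.00578, edgeR) for tretinoin, 1.29 (SE 0.16, adjusted p = 2.21e-06) for vemurafenib and 1.88 (SE 0.15, adjusted p = 1.07e-08) for the combination. With only the DMSO and tretinoin libraries in the fit, the tretinoin change was 0.85 with an adjusted p of 0.0513.

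The ABCA1 promoter is shown because the gene was called in all 5 pairwise comparisons and has a single RefSeq window. ABCB9 was also called in all 5, but has 3 windows. The window runs from 250 bases before to 50 bases after the RefSeq start (GRCh38.p14, chr9:104928106-104928405, minus strand), in the 5′ to 3′ direction of the gene. Capitals mark 3 GC boxes (GGGCGG) at -189, -163 and -97, an E-box (CACGTG) at -147 and a TATAAA at -31. They also mark, at -69 and on the other strand, a loose match to a direct repeat with a spacing of 4 bases (DR4). DR4 is the layout bound by LXR with its retinoid X partner.
ABCA1: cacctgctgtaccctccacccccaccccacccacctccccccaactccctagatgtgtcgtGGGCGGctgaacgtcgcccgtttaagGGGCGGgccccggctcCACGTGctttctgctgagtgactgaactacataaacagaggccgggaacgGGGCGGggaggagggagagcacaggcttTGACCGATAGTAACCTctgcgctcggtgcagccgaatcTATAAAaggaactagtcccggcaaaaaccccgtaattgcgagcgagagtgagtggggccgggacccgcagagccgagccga
The repeat was found with a loose half-site, NGGTNA on either side of the spacer, on both strands. It occurs in 0.6% of all 35116 RefSeq promoter windows and in 1 of the 53 windows of the members, that of ABCA1. The loose search was added after this window was read, so that match was fixed in advance and the member count says nothing. The stricter DR4 and DR5 repeats, named here by type only, occur in 0.1% of all windows each and in none of the members' windows. The E-box occurs in 7.3% of all windows and in 9 of the members' 53, the GC box in 45% and in 25, and TATAAA in 11.5% and in 8. RefSeq windows were matched for 35 of the 45 members, and ABCG1 and ABCC3 are among the 10 without one. A match describes the letters only, not binding.

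ABCG1, which exports sterol to lipoprotein particles, was at 0.967, 0.608 and 1.16 CPM in DMSO and 1.54, 1.28 and 1.10 with tretinoin. It was at 2.65, 2.502 and 3.49 with vemurafenib and 2.75, 3.62 and 3.17 with the combination. Every library with vemurafenib lay above every library without it. Its log2 fold change was 1.61 (SE 0.26, adjusted p = 5.31e-05, edgeR) for vemurafenib and 1.77 (SE 0.25, adjusted p = 1.46e-05) for the combination. For tretinoin it was 0.47 (SE 0.30, adjusted p = 0.369), with overlapping groups. ABCG4, a sterol exporter best known in brain, was at 0.451, 0.338 and 0.686 CPM in DMSO, 0.66, 0.581 and 0.767 with tretinoin, 1.61, 1.40 and 1.68 with vemurafenib and 1.05, 1.16 and 1.13 with the combination. It rose by 1.61 (SE 0.31, adjusted p = 0.000275) with vemurafenib and by 1.14 (SE 0.32, adjusted p = 0.0061) with the combination on the log2 scale. The combination libraries lay below the vemurafenib libraries without overlap, but the difference of -0.48 (SE 0.26) did not pass the test (adjusted p = 0.445).

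ABCA3, which fills lamellar bodies with surfactant lipid in lung, and ABCA7, a phospholipid exporter, also rose. The log2 fold changes with vemurafenib and with the combination were 0.88 and 0.59 for ABCA3, and 0.89 and 1.20 for ABCA7. ABCA2, a lipid transporter of endosomes and lysosomes, was the most abundant member of the group per kilobase and changed least among those called, by 0.25 and 0.18. ABCA5 rose by 0.46 and 0.41. The ABCA2 call in the combination was lost in 9 of 15 alternatives, among them leaving out DMSO replicate 1 or 2 or any combination library (adjusted p up to 0.14). The ABCA5 calls were lost in 6 and 8 of 15, among them leaving out DMSO replicate 2 or 3 or any library of the treated group (up to 0.158). The ABCA5 gene shares 318 exon bases with its neighbour ABCA10, which was not called in any comparison, and fragments from that stretch could not be assigned to either.

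ABCA13, a very large member of uncertain cargo, had 9 to 42 counts per library and was at 0.773, 0.608 and 0.528 CPM in DMSO. It was at 1.83, 0.872 and 0.603 with tretinoin, 0.883, 1.06 and 1.26 with vemurafenib and 1.10, 1.95 and 1.49 with the combination. Only the combination was called against DMSO, with a log2 fold change of 1.27 (SE 0.38, adjusted p = 0.00999, edgeR). Without combination replicate 2 it was 1.04 with an adjusted p of 0.0572. The change with vemurafenib was 0.74 (SE 0.41, adjusted p = 0.136), and that between combination and vemurafenib did not pass the test either.

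ABCB9 and ABCD4, the 2 members listed as lysosomal, rose with vemurafenib and with the combination, beside 26.4% and 27.1% of all genes. ABCA2, described above for endosomes and lysosomes, was counted with the sterol and lipid exporters and changed less. ABCB9, which carries peptides into lysosomes, was at 52.7, 51.3 and 51.1 CPM in DMSO, 67.1, 62.0 and 57.0 with tretinoin, 104, 99.7 and 98.9 with vemurafenib and 131, 137 and 136 with the combination. The 4 groups were fully separated. The log2 fold change against DMSO was 0.26 (SE 0.07, adjusted p = 0.0333, edgeR) for tretinoin, 0.96 (SE 0.07, adjusted p = 2.71e-09) for vemurafenib and 1.38 (SE 0.07, adjusted p = 2.08e-11) for the combination. The tretinoin call did not hold in 8 of 15 alternatives, among them leaving out any DMSO library and tretinoin replicate 1 or 2. With the other groups left out of the fit the adjusted p was 0.143, at a log2 fold change of 0.27. Of the 13291 exon bases of ABCB9, 5998 lie under genes of the other strand, AC026362.1, OGFOD2 and ARL6IP4. Strand was ignored in counting and those genes had at most 13 counts in any library, so fragments from that stretch could not be assigned to either side. ABCD4, which takes part in releasing vitamin B12 from lysosomes, rose by 0.68 (SE 0.10, adjusted p = 1.87e-05) with vemurafenib and by 0.80 (SE 0.10, adjusted p = 3.02e-06) with the combination.

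The changes of the peroxisomal ABCD3 and the mitochondrial ABCB8 were small. ABCD3, a fatty acid importer, rose by 0.19 (SE 0.075, adjusted p = 0.0367, edgeR) with vemurafenib and by 0.23 (SE 0.07, adjusted p = 0.0146) with the combination on the log2 scale. ABCB8 rose by 0.23 (SE 0.07, adjusted p = 0.0144) with vemurafenib and by 0.31 (SE 0.07, adjusted p = 0.00185) with the combination. The ABCD3 call with vemurafenib was lost without DMSO replicate 1 or 3 or any vemurafenib library (adjusted p up to 0.142), and its combination call without DMSO replicate 3 or combination replicate 1 or 3 (up to 0.073). The ABCB8 call with vemurafenib was lost without DMSO replicate 1 or 3 or vemurafenib replicate 3 (up to 0.079). ABCB10 was called lower in the combination alone, with a log2 fold change of -0.24 (SE 0.08, adjusted p = 0.026, edgeR), with overlapping libraries. That call was lost in 5 of 15 alternatives, namely total counts, at least 10 counts in every library (adjusted p = 0.063), and without DMSO replicate 2 (0.143), combination replicate 1 (0.0757) or combination replicate 3 (0.0792). ABCB6 had 6 to 20 counts per library, and its change with vemurafenib was 0.89 (SE 0.49, adjusted p = 0.136).

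Drug and conjugate exporters were called in both directions. Of 12 members with this role 9 were tested. Vemurafenib raised 3 and lowered 1, the combination raised 3 and lowered 2, and tretinoin raised 1. Over all genes vemurafenib raised 26.4% and lowered 26.3%, so the count for this role is near the background. The median log2 fold change of the 9 was 0.01 for vemurafenib and 0.12 for the combination. ABCC10, a broad exporter of conjugates and anticancer drugs, was at 11.7, 8.58 and 10.8 CPM in DMSO, 15.7, 13.9 and 12.8 with tretinoin, 18.4, 19.8 and 16.2 with vemurafenib and 22.8, 26.7 and 26.2 with the combination. The groups did not overlap, and the combination libraries were the highest. It rose by 0.81 (SE 0.12, adjusted p = 2.79e-05) with vemurafenib and by 1.28 (SE 0.12, adjusted p = 8.87e-08) with the combination. The change with tretinoin, 0.44 (SE 0.13), just missed the threshold at an adjusted p of 0.0502 in edgeR and passed it in DESeq2 at 0.0292.

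ABCC2, which exports glucuronide and glutathione conjugates, rose with vemurafenib and less so in the combination. It was at 37.1, 32.6 and 38.6 CPM in DMSO, 36.4, 35.3 and 32.9 with tretinoin, 64.4, 68.1 and 61.4 with vemurafenib and 44.6, 47.7 and 49.5 with the combination. DMSO and tretinoin overlapped, and the combination lay between them and vemurafenib. The log2 fold change against DMSO was 0.84 (SE 0.08, adjusted p = 9.51e-08, edgeR) for vemurafenib and 0.39 (SE 0.08, adjusted p = 0.000493) for the combination.

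ABCC3, an exporter of bile salts and glucuronides, rose with tretinoin and fell with vemurafenib. It was at 12.4, 12.6 and 12.5 CPM in DMSO, 19.9, 17.9 and 17.9 with tretinoin, 6.03, 6.54 and 5.59 with vemurafenib and 6.44, 6.37 and 6.38 with the combination. The combination libraries lay within the range of the vemurafenib libraries. The log2 fold change was 0.57 (SE 0.09, adjusted p = 0.00127, edgeR) for tretinoin, -1.04 (SE 0.10, adjusted p = 2.15e-07) for vemurafenib and -0.96 (SE 0.10, adjusted p = 4.25e-07) for the combination, against DMSO each. It was the only member called in opposite directions under the single drugs.

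ABCB1 (P-glycoprotein), the best known multidrug exporter, was at 2.38, 2.57 and 2.38 CPM in DMSO, 3.15, 3.66 and 2.47 with tretinoin, 2.49, 3.46 and 2.64 with vemurafenib and 4.35, 3.44 and 2.90 with the combination. Only the combination was separate from DMSO. Its log2 fold change of 0.54 (SE 0.21, adjusted p = 0.0395, edgeR) was not called in 8 of 15 alternatives, DESeq2 included (adjusted p = 0.0523). Leaving out combination replicate 1 gave 0.37 with an adjusted p of 0.177. Any DMSO library or combination replicate 2 left out also ended the call.

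ABCG2 (breast cancer resistance protein), the other main carrier of vemurafenib, was at 4.45, 6.28 and 5.54 CPM in DMSO, 7.26, 6.63 and 5.59 with tretinoin, 4.31, 4.38 and 3.67 with vemurafenib and 4.18, 4.41 and 3.35 with the combination. All libraries with vemurafenib lay below all without it. Vemurafenib gave a log2 fold change of -0.39 (SE 0.17, adjusted p = 0.0609, edgeR) and the combination one of -0.45 (SE 0.17, adjusted p = 0.0324) against DMSO. It was -0.70 (SE 0.17, adjusted p = 0.00187) for the combination against tretinoin. Without DMSO replicate 2 the combination gave -0.34 (adjusted p = 0.136), without DMSO replicate 3 -0.44 (adjusted p = 0.0753) and without combination replicate 3 -0.34 (adjusted p = 0.131). Without DMSO replicate 1 the vemurafenib change was called, at -0.51 (adjusted p = 0.0219).

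ABCC6, counted with the drug exporters and known to limit mineral deposition through ATP release, had 3 to 19 counts per library. It was at 0.516, 0.203 and 0.528 CPM in DMSO, 0.367, 0.697 and 0.438 with tretinoin, 0.883, 0.914 and 0.781 with vemurafenib and 0.88, 0.743 and 0.724 with the combination. The libraries with vemurafenib lay above all others. Its change on the log2 scale was 1.01 (SE 0.38, adjusted p = 0.033, edgeR) for vemurafenib and 0.87 (SE 0.38, adjusted p = 0.065) for the combination. ABCC6 passed the filter on low counts through the libraries with vemurafenib, so its rise there was largely fixed in advance. Its vemurafenib call is among the 16 members and the 3 drug and conjugate exporters counted as raised. DESeq2 gave an adjusted p of 0.066 for vemurafenib, and without DMSO replicate 2 the change was 0.72 (adjusted p = 0.141). Leaving out vemurafenib replicate 1 or 2 also ended the call. The gene shares a near-identical stretch of 1382 bases with its pseudogene ABCC6P1 and 706 with ABCC6P2, so its counts are uncertain. ABCC1, ABCC4 and ABCC5 were not called against DMSO under any treatment, with log2 fold changes of -0.18 to 0.29.

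**Figure D3:**
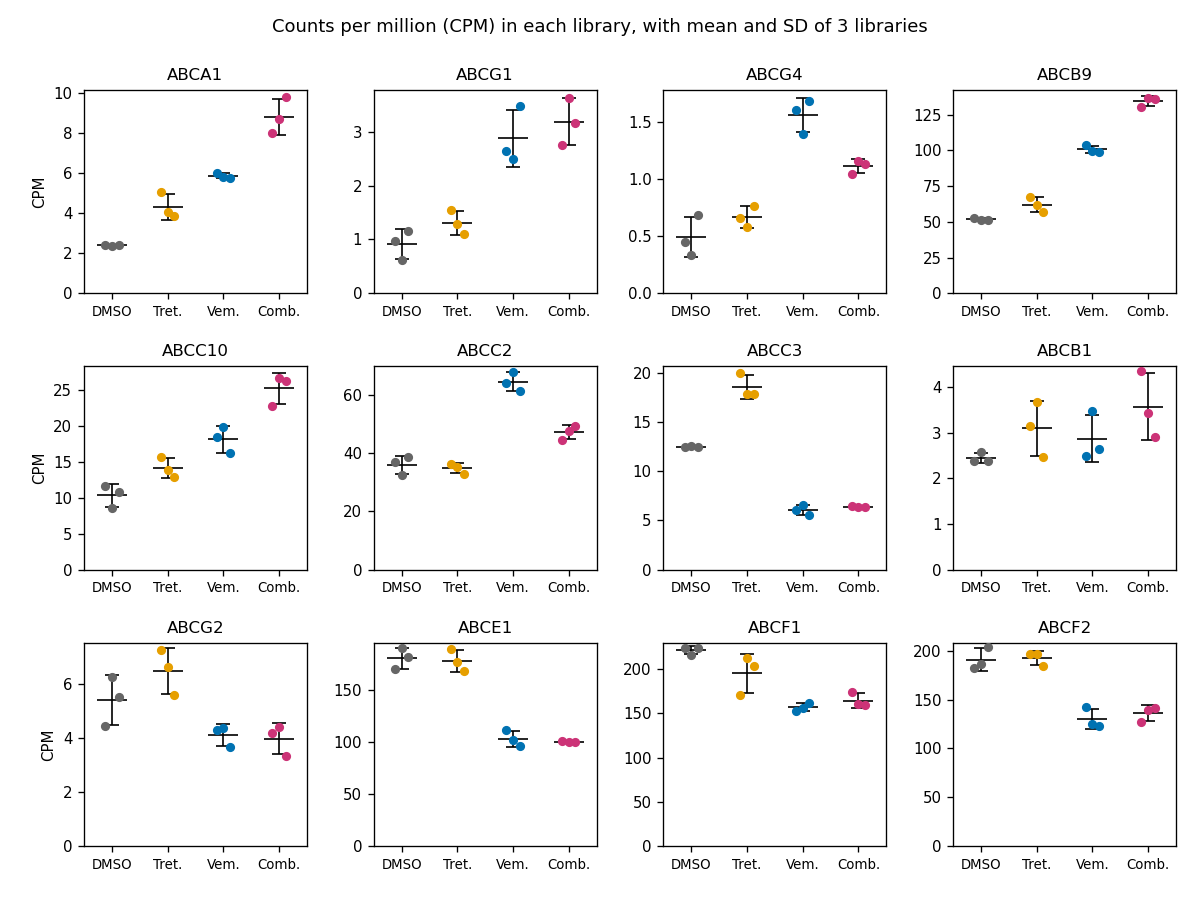
CPM in each library of 12 ABC genes, each panel with its own axis from 0, with points for libraries, a horizontal line for the group mean and bars for the SD of 3 libraries. ABCA1, ABCB9 and ABCC10 step up from DMSO to the combination, ABCC3 is split by the drugs, and ABCE1, ABCF1 and ABCF2 are lower with vemurafenib present.

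The soluble members ABCE1, ABCF1 and ABCF2 fell with vemurafenib. Of 4 such members, 3 fell and none rose under vemurafenib and under the combination, and none was called with tretinoin. Over all genes, 26.3% fell and 26.4% rose with vemurafenib, and 26.5% and 27.1% with the combination. ABCE1, which splits ribosomes after termination, was at 169.8, 189.95 and 182 CPM in DMSO, 189, 176 and 168 with tretinoin, 111, 102 and 96.1 with vemurafenib and 100.5, 100.3 and 100.1 with the combination. DMSO and tretinoin overlapped and both lay above the rest. The log2 fold change was -0.81 (SE 0.07, adjusted p = 4.71e-08, edgeR) for vemurafenib, -0.85 (SE 0.07, adjusted p = 2.38e-08) for the combination and -0.02 (SE 0.07, adjusted p = 0.895) for tretinoin. Opposite-strand genes cover 988 of its 6265 exon bases, and a pseudogene, AL513175.1, that shares 779 near-identical bases had 2 to 12 counts.

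ABCF1, a translation initiation factor partner, was at 224, 216 and 224 CPM in DMSO, 170.5, 212 and 203 with tretinoin, 152, 156 and 162 with vemurafenib and 174, 159.9 and 159 with the combination. ABCF2 was at 182, 187 and 204 CPM in DMSO, 197, 197 and 185 with tretinoin, 142, 125 and 123 with vemurafenib and 127, 139 and 142 with the combination. For both genes every library with vemurafenib lay below every DMSO library. The log2 fold changes with vemurafenib and the combination were -0.50 (SE 0.08, adjusted p = 3.35e-05, edgeR) and -0.43 (SE 0.08, adjusted p = 0.000134) for ABCF1, and -0.55 (SE 0.07, adjusted p = 7.55e-06) and -0.49 (SE 0.07, adjusted p = 2.6e-05) for ABCF2. ABCF3 differed by 0.01 (SE 0.08) and -0.01 (SE 0.08), and was not called.

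The promoter windows of the 3 members that fell are shown because they moved together. They are in the 5′ to 3′ direction of each gene, from GRCh38.p14, at chr4:145098061-145098360 on the plus strand for ABCE1, chr6:30571192-30571491 on the plus strand for ABCF1 and chr7:151227156-151227455 on the minus strand for ABCF2. Capitals mark a cyclic AMP response element (TGACGTCA) at -98 in ABCE1, an E-box at -79 and a GC box at -63 in ABCF1, and a GC box at -201 and a CCAAT box at -35, both on the other strand, in ABCF2.
ABCE1: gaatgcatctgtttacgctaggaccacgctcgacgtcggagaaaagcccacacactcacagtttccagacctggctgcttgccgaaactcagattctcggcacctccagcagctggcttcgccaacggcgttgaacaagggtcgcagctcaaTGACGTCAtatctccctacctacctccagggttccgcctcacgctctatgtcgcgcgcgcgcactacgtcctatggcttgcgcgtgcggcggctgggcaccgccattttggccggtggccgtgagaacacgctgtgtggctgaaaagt
ABCF1: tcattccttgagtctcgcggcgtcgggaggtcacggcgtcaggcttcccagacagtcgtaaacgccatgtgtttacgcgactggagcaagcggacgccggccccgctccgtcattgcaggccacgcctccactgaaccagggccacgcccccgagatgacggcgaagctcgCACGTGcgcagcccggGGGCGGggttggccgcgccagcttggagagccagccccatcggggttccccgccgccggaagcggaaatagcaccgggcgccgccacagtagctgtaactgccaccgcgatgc
ABCF2: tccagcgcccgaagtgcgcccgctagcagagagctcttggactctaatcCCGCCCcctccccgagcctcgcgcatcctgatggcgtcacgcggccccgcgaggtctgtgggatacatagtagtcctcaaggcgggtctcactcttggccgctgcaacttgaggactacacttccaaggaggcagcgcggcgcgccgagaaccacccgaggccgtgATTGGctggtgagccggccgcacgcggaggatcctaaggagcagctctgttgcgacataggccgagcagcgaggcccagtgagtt
No motif among those searched was common to all 3 windows. The cyclic AMP response element occurs in 1.8% of all RefSeq windows and in 1 of the members' 53, and the CCAAT box in 34.6% and in 12. The AP-1 site (TGACTCA) and the ETS site (CCGGAAGT), searched on both strands too, occur in 4.9% and 4.1% of all windows and in 2 and 1 of the members'.

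The effect of tretinoin was next compared without and with vemurafenib. Adding tretinoin to vemurafenib raised 3 tested members and lowered 1, while 2.27% of all genes rose and 2.2% fell. ABCA1 rose by 0.59 (SE 0.13, adjusted p = 0.00974, edgeR), ABCB9 by 0.42 (SE 0.07, adjusted p = 0.000543) and ABCC10 by 0.47 (SE 0.11, adjusted p = 0.0168) on the log2 scale. ABCC2 was the member that fell, with a log2 fold change of -0.45 (SE 0.08, adjusted p = 0.00117). For ABCA1 the call was lost without combination replicate 3 (adjusted p = 0.0738) and without vemurafenib replicate 2 (adjusted p = 0.0509). For ABCC10 it was lost without combination replicate 2 or 3 and without vemurafenib replicate 1 or 3, at adjusted p of 0.0658 to 0.1.

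The difference between these effects was tested directly, as the combination against vemurafenib less tretinoin against DMSO. No member was called in that interaction, beside 0.382% of all genes higher and 0.424% lower. In edgeR 3 members had an unadjusted p under 0.05, and DESeq2 called 0 as well. ABCC3 had an interaction of -0.49 (SE 0.14, adjusted p = 0.131), ABCC2 one of -0.40 (SE 0.11, adjusted p = 0.117) and ABCF1 one of 0.25 (SE 0.11, adjusted p = 0.285). The rise of ABCC3 with tretinoin alone and its change of 0.07 (SE 0.11) on top of vemurafenib are thus not shown to differ.

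**Figure D4:**
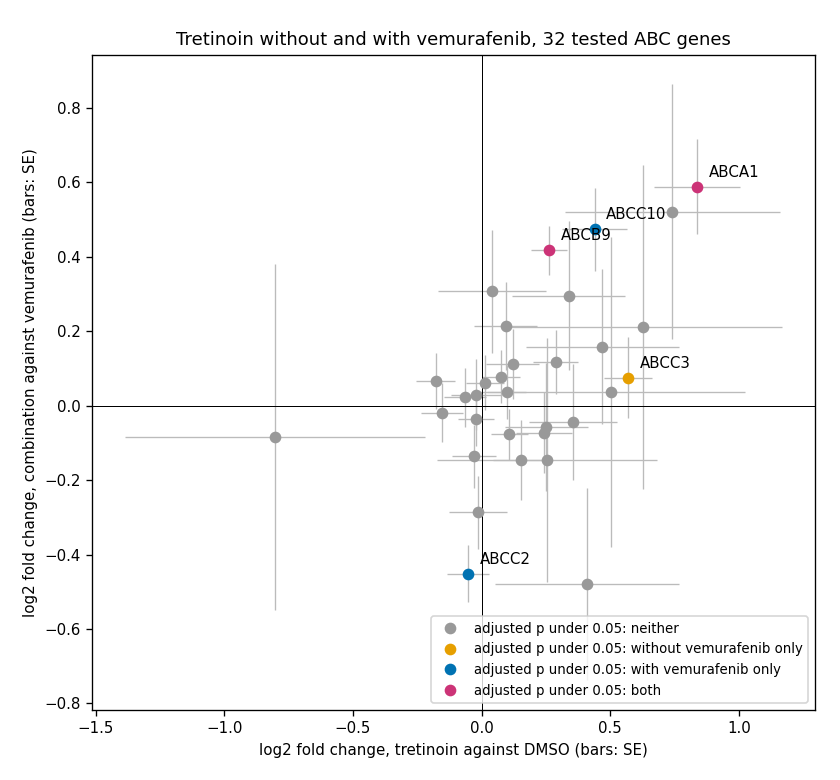
Log2 fold change of the 32 tested ABC genes for tretinoin against DMSO (horizontal) and for the combination against vemurafenib (vertical), with SE bars and colours for the comparisons that passed an adjusted p of 0.05 (edgeR). ABCA1 and ABCB9 passed in both, ABCC3 only for tretinoin against DMSO, and ABCC2 and ABCC10 only on top of vemurafenib.

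Adding vemurafenib to tretinoin gave 11 higher and 7 lower members, beside 24.1% and 25% of all genes. With total counts as the scale the split was 14 higher and 4 lower, and over all genes it went from 4026 higher and 4191 lower to 5051 and 3271. ABCG1, ABCA7, ABCB9 and ABCA1 rose most, by 1.30, 1.16, 1.12 and 1.04 on the log2 scale. Among the members ABCC3 had the largest fall, with a log2 fold change of -1.53 (SE 0.10, adjusted p = 8.67e-10, edgeR), followed by ABCE1 at -0.83 and ABCG2 at -0.70. ABCC4 and ABCC5, exporters of cyclic nucleotides and conjugates, had log2 fold changes of -0.34 and -0.38 and lost their calls on the total-count scale. The ABCC4 call was also lost without tretinoin replicate 1, at -0.16 (adjusted p = 0.0841), and without combination replicate 1 (0.0667). ABCF1, at -0.25, lost its call there and without tretinoin replicate 2 (adjusted p = 0.0667).

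Genes around the transporters were described from lists of their pathways, to be read beside the 26.4% of all genes called higher and 26.3% lower with vemurafenib, 27.1% and 26.5% in the combination and 3.48% and 2.2% with tretinoin. Of 11 genes of the LXR pathway, 8 were higher and 1 lower with vemurafenib, 7 and 2 in the combination, and 2 and 1 with tretinoin. SREBF1, the regulator of fatty acid synthesis, rose by 1.03 in the combination, the phospholipid enzyme LPCAT3 by 0.84 and NR1H3, which encodes LXR alpha, by 0.73 on the log2 scale. NR1H2, which encodes LXR beta, was the more abundant receptor gene, at a mean of 137.9 CPM in DMSO against 9.99 for NR1H3. It was called lower, at -0.316 (adjusted p = 0.00256, edgeR) with vemurafenib and -0.305 (adjusted p = 0.00314) with the combination. MYLIP, another LXR target, went the other way when tretinoin was added to vemurafenib, at -0.78 (SE 0.12, adjusted p = 0.00064, edgeR). Of 9 tested genes of sterol synthesis and uptake, vemurafenib raised 2 and lowered 3, the combination raised 1 and lowered 4, and tretinoin lowered 3. HMGCS1 and SQLE, enzymes of cholesterol synthesis, had log2 fold changes of -0.82 (SE 0.10, adjusted p = 3.33e-06, edgeR) and -0.43 (SE 0.08, adjusted p = 0.000349) in the combination.

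Of 8 genes of translation termination and ribosome recycling, the process ABCE1 serves, 5 fell and 1 rose with vemurafenib and with the combination. GSPT1 and ETF1, the release factors, changed by -0.68 and -0.64 in the combination and the rescue factor PELO by -0.60. Of 13 tested genes of xenobiotic and NRF2 sensing, vemurafenib raised 3 and lowered 4 and the combination raised 4 and lowered 6, with GCLM at -0.80, SRXN1 at -0.80 and ARNT at 0.75 in the latter. Of 13 genes of heme synthesis and iron handling, 3 rose and 7 fell under each, with SLC25A37 at -0.72 and PPOX at 0.57 in the combination. Of 9 peroxisomal genes vemurafenib raised 3 and lowered 2, and the combination raised 2 and lowered 2, with CAT at 0.50 and PEX3 at -0.36 in the latter. The vemurafenib counts of the xenobiotic and peroxisomal lists are near the share over all genes. TAP2, a peptide transporter of antigen presentation, had a log2 fold change of -0.57 (SE 0.10, adjusted p = 0.000117, edgeR) with vemurafenib, and its partner TAP1 one of -0.05 (SE 0.07, adjusted p = 0.552). KCNJ11, the potassium channel that ABCC8 regulates, had 2 to 17 counts and rose by 1.65 (SE 0.47, adjusted p = 0.0066) with vemurafenib. It was at 0.883, 0.722 and 0.721 CPM in the vemurafenib libraries and at most 0.543 in any other. KCNJ11 thus passed the filter on low counts through the vemurafenib libraries, so its rise there was largely fixed in advance. In the combination its change was 0.40 (SE 0.54, adjusted p = 0.55), and the combination against vemurafenib gave -1.25 (SE 0.42, adjusted p = 0.123).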

How the data were processed

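The authors aligned paired reads of poly(A) libraries made with a directional kit to GRCh38.p10 with STAR 2.5.3a, and counted fragments on GENCODE 27 genes in union mode with strand ignored. The deposited values are raw counts per gene, 1 table per library, and the columns were used as deposited. Fragments that touch several genes are dropped in this mode. Total counts of 13510235 to 21534377 limit the precision of low genes, and a count of 0 allows up to 3 counts.

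Ensembl identifiers were matched to GENCODE 29, where 58039 of 58347 were found. Exon lengths and overlaps came from that release, and near-identical stretches of at least 150 bases and 98% identity from blastn 2.17.0+. Counts were fitted in edgeR 4.0.16 (R 4.3.3) with filterByExpr, TMM and glmQLFTest over all 12 libraries, with a term per group and no block (common dispersion 0.0065). The method was run on simulated data in which a small share of genes changed, equally up and down and in the combination only. Changes as wide as those called here were not simulated. Alternatives were DESeq2 1.42.0 with and without a beta prior, DESeq2 size factors, total counts, no filter, at least 10 counts in every library, an adjusted p of 0.1, the replicate block, only the groups compared, and each library left out. Genes shown library by library were, by rule, members called for tretinoin, for the combination against vemurafenib or for the interaction (up to 6 each), the 5 largest rises and falls called with vemurafenib and with the combination, and ABCB1, ABCG2, ABCA1, ABCG1, ABCB5 and ABCE1. The members and lists were chosen with earlier results of these data known. Motifs were counted in RefSeq promoter windows of 300 bases, and the loose DR4 search was added after the ABCA1 window was read. Results for some genes are not reported here and their rows are left out of 2 plots.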

Additional observations from a re-analysis of the deposited data

How the results depend on the processing

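Of 68 called changes of members over the 5 pairwise comparisons, none turned direction in any alternative run, 43 kept the call in all of them and 25 lost it in some. The count of members called was 3 for tretinoin, and became 5 with DESeq2 (with or without the beta prior), 5 with total counts, 5 at an adjusted p of 0.1 and 1 with only the groups compared; ABCC1 and ABCC10 were the members gained with DESeq2. It was 2 to 5 with a library left out, 5 being the count without tretinoin replicate 3. For vemurafenib the count was 20, with 15 when no filter was used, and 16 to 18 with a library left out, for the combination 23 and 17 to 20, for the combination against vemurafenib 4 and 2 to 4, for the combination against tretinoin 18 and 16 to 20, and for the interaction 0 throughout. Without combination replicate 3 the combination against vemurafenib called 2. Over all genes, the count called moved by more than 1.5 times for tretinoin (951 reported, 1540 with no filter, 305 with only the groups compared, 1715 at an adjusted p of 0.1, 379 without DMSO replicate 2, 619 without tretinoin replicate 2), for the combination against vemurafenib (749 reported, 1269 with only the groups compared, 482 and 460 without vemurafenib replicates 1 and 2, 460 and 474 without combination replicates 2 and 3) and for the interaction (135 reported, 610 with no filter, 276 or 277 with DESeq2, 269 at an adjusted p of 0.1, 75 with the replicate block, 60 without DMSO replicate 2, 71 and 64 without vemurafenib replicates 1 and 2, 88, 65 and 88 without combination replicates 1, 2 and 3, 265 without tretinoin replicate 1). Over all genes the split of higher and lower calls for tretinoin was 736 and 804 with no filter, and for the interaction it went from 64 and 71 to 36 and 132 with total counts. The interaction could not be fitted on only the groups compared, since it uses all of them. ABCE1 with tretinoin, not called, changed sign at 0.055 with total counts, and ranged from -0.068 to 0.018 with a library left out, above zero without DMSO replicate 2 and without tretinoin replicate 3. Of 47 gene results followed for 14 named genes, 36 kept their call and direction in all alternatives run and 11 did not. The cause was not tested.

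With the replicate block, 2 members were called for tretinoin (ABCB9 lost, adjusted p = 0.0606), 18 for vemurafenib, with ABCC6 among the losses at 0.0514, 22 for the combination, 4 for the combination against vemurafenib, 18 against tretinoin and 0 for the interaction. The numbers did not pair the libraries: the mean correlation of deviations of same-numbered libraries was -0.031 (-0.143 to 0.087, 18 pairs). No 2 libraries of a group agreed within sampling noise, with chi-square per degree of freedom of 2.59 to 22.39.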
